A study of Mus musculus with 2 samples.

Results

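Neurog3, Neurod1, Insm1, Nkx2-2, Isl1, Fev, Pax4 and Sox4 encode the transcription factors that act while an intestinal precursor becomes an enteroendocrine cell, the hormone-secreting cell of the gut lining. These 8 genes were taken by name from the 15745 genes in the count table of mouse intestinal organoids, and all 8 were found and passed the minimum of 10 unique molecular identifiers (UMIs, one per captured transcript) over both libraries. One library came from organoids at day 5 and the other from organoids at day 3 of culture, with no replicate of either. Per the labels, both were grown from wild-type C57BL/6 mice aged 10 weeks, and the basal medium of both held EGF, Noggin and R-spondin. Up to day 3 the medium also held 20% Wnt3a-conditioned medium and 10 µM Y-27632, a ROCK inhibitor, and up to day 1 it held 3 µM CHIR99021, an inhibitor of GSK3B. From day 3 to day 5 this basal medium was used alone, so day and medium differ together and cannot be told apart. The day 5 library held 17349076 UMIs in 1065 cells (lowest 6777, median 13549 per cell), and the day 3 library 28764033 UMIs in 798 cells (lowest 17601, median 32063.5). The cells are named by running numbers, so barcodes shared between the libraries could not be counted.

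Enteroendocrine cells arise from the secretory branch of the intestinal crypt. A precursor that escapes Notch signalling expresses Atoh1, and a minority of such cells then switches on Neurog3, a basic helix-loop-helix factor without which the mouse intestine lacks enteroendocrine cells. Neurog3 is expressed briefly. It activates Neurod1, Insm1, Nkx2-2 and Pax4, after which factors such as Isl1 and Fev act in maturing cells and help to set which hormone they make. Sox4, an SRY-related factor, is also expressed in crypt progenitors and has roles in tuft as well as endocrine lineages.

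Neurog3 and Neurod1 proteins bind DNA at E-boxes, written CANNTG, a motif that reads the same on both strands. The stretches upstream of Neurog3, Neurod1 and Isl1 are shown because these genes stand for the initiating, the following and the late step of the order described here. They end before both the RefSeq and the GENCODE transcript start, are taken from RefSeq on GRCm38.p6, and have their E-box in capitals.
Neurog3, chr10:62132840-62133089, plus strand: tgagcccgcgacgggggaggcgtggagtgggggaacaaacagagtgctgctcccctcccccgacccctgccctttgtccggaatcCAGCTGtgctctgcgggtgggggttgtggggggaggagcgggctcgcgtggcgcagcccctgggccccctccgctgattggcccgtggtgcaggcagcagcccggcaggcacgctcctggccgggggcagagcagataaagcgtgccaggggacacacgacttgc
Neurod1, chr2:79456752-79456886, minus strand: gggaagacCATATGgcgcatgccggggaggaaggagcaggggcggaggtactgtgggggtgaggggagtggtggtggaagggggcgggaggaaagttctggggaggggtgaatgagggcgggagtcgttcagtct
Isl1, chr13:116309690-116309938, minus strand: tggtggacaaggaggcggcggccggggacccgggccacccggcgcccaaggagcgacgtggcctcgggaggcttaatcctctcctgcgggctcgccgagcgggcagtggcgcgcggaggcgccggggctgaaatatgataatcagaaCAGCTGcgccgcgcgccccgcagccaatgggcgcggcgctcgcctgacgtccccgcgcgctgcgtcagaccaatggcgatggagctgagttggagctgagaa
Each of these windows held 1 E-box, CAGCTG for Neurog3 and Isl1 and CATATG for Neurod1. Promoters of 6 of the 8 genes were matched, and in the full 250 bases before the RefSeq start Sox4 held 1 E-box, Nkx2-2 held 3 and Fev held 0. The motif is common, since 66.2% of 32851 mouse promoters had at least 1 in the same length. A match describes letters in a window and is not a binding site.

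Between the days, Neurog3 and Insm1 were lower at day 5, and no factor was higher. A gene was called where its summed level, in UMIs per 1000000 of the library (CPM), differed by at least 1.5-fold with exact Poisson 95% intervals apart. By this rule 2 of the 8 factors were lower and 0 higher, against 31.5% lower and 12.3% higher among all 12782 genes with at least 10 UMIs, and 25.6% and 10.1% among all genes without that minimum. The count of factors called is thus near the background and says nothing particular of these genes. The median log2 ratio of the 8 factors was -0.94, beside -0.33 for all genes. With TMM scaling the median over all genes was -0.02, and the background was 17.1% lower and 18.8% higher, with the same 2 factors lower. The intervals cover counting error only, and with 1 library per day no test between days was possible.

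**Figure D1:**
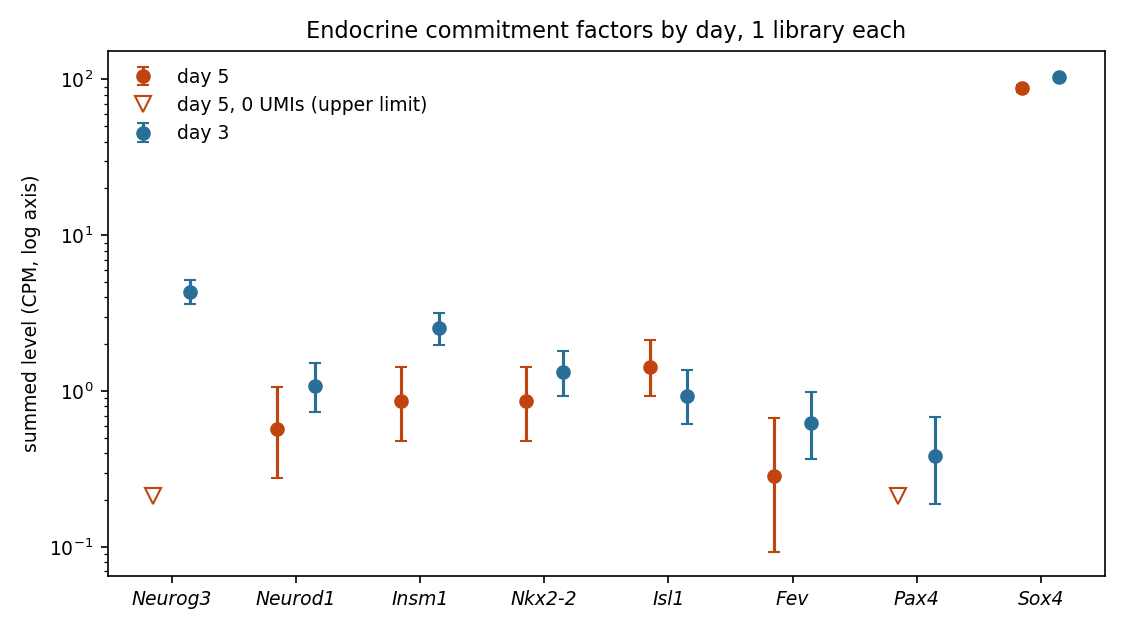
Summed level of each factor (CPM, log axis) in the day 5 and the day 3 library, 1 library each. Bars are exact Poisson 95% intervals, and open triangles mark the upper end of that interval, 0.213 CPM, where 0 UMIs were counted at day 5. Neurog3 at 4.35 CPM in the day 3 library lies far above that limit, while the points of Isl1 have overlapping bars.

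Neurog3 (ENSMUSG00000044312, chr10:62133090-62134763 on GRCm38), the initiating factor, was not found at day 5, with 0 UMIs in 1065 cells, against 125 UMIs in 18 of 798 cells at day 3. With the floor of 3 UMIs (0.173 CPM) set in place of 0 in the day 5 library, and 4.35 CPM in the day 3 library (95% interval 3.62 to 5.18), it was at least 25.1-fold lower at day 5, a log2 bound of -4.65. The bound was -3.62 with day 5 cells at or above the day 3 minimum of UMIs and -4.05 without Enterocyte-like cells, since fewer day 5 UMIs are then left. The share of cells with a Neurog3 UMI was 0% at day 5, which allows up to 0.282% by the floor of 3 counts, and 2.26% at day 3 (exact interval 1.34 to 3.54). At an equal depth of 6777 UMIs per cell, 9.77 of the 798 day 3 cells would be expected to show Neurog3, a share of 1.22%. The UMIs were concentrated, with 30 in the highest cell, 24.0% of the total, and 68.0% in the 5 highest. Fam241b overlaps the gene on the other strand, and whether counting used strand is not given in the sources used here.

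Insm1 (ENSMUSG00000068154, chr2:146221921-146225020), a zinc-finger repressor induced by Neurog3, had 15 UMIs in 7 cells at day 5 and 73 UMIs in 22 cells at day 3. Its level was 0.865 CPM in the day 5 library (interval 0.484 to 1.43) and 2.54 CPM in the day 3 library (interval 1.99 to 3.19), which gives a log2 ratio of -1.52. Without the Enterocyte-like cells, which held 503 of the 1065 day 5 cells and 3 of the day 3 cells, the log2 ratio was -0.91 and the call was lost. Neurog3 remained lower in that comparison.

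Neurod1 (ENSMUSG00000034701, chr2:79452521-79456751), a relative of Neurog3 that carries the endocrine programme forward, had 10 UMIs in 4 cells at day 5 and 31 UMIs in 9 cells at day 3. That is 0.576 CPM (0.276 to 1.06) for day 5 and 1.08 CPM (0.732 to 1.53) for day 3, with overlapping intervals. Cerkl overlaps this gene on the same strand. Nkx2-2 (ENSMUSG00000027434, chr2:147177546-147194243), a homeodomain factor, had 15 UMIs in 5 cells at day 5 and 38 UMIs in 14 cells at day 3, or 0.865 CPM (0.484 to 1.43) for day 5 and 1.32 CPM (0.935 to 1.81) for day 3. Its antisense neighbour Nkx2-2os overlaps it. Pax4 (ENSMUSG00000029706, chr6:28442334-28449353), a paired homeodomain factor, had 0 UMIs at day 5 and 11 UMIs in 6 cells at day 3. That is at least 2.21-fold lower at day 5, but the upper end of the Poisson interval at day 5, 0.213 CPM, lay above the lower end at day 3, 0.191 CPM, and no call was made. A single cell held 45.5% of the Pax4 UMIs at day 3.

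Isl1 (ENSMUSG00000042258, chr13:116298281-116309689), a LIM homeodomain factor of maturing endocrine cells, was the only factor with a positive log2 ratio under CPM, 0.62. It had 25 UMIs in 6 cells at day 5 and 27 UMIs in 9 cells at day 3, or 1.44 CPM (0.933 to 2.13) for day 5 and 0.939 CPM (0.619 to 1.37) for day 3, and the intervals overlapped. The share of cells with an Isl1 UMI was 0.563% at day 5 and 1.13% at day 3, but at equal depth 0.470% and 0.372%. Without the Enterocyte-like cells Isl1 was called higher, with a log2 ratio of 1.23. Fev (ENSMUSG00000055197, chr1:74881509-74885419), an ETS factor known from serotonin-producing neurons and endocrine progenitors, had 5 UMIs in 4 cells at day 5 and 18 UMIs in 8 cells at day 3, or 0.288 CPM (0.0936 to 0.673) for day 5 and 0.626 CPM (0.371 to 0.989) for day 3, with overlapping intervals.

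Sox4 (ENSMUSG00000076431, chr13:28948919-28953713) was far more widespread than the other factors, with 1522 UMIs in 487 cells at day 5 and 2980 UMIs in 628 cells at day 3. Its level was 87.7 CPM in the day 5 library (interval 83.4 to 92.2) and 103.6 CPM in the day 3 library (interval 99.9 to 107), and the sign of the log2 ratio depended on scaling, -0.24 with CPM and 0.07 with TMM. The share of cells with a Sox4 UMI was 45.7% at day 5 and 78.7% at day 3, but at equal depth 29.2% and 38.4%. In the Enterocyte-like cells of day 5 (median 11059 UMIs) 15.3% had a Sox4 UMI, while 0 of 503 had a UMI of Neurog3, Neurod1, Insm1, Isl1, Fev or Pax4 and 1 had a UMI of Nkx2-2 (0.199%). By the floor of 3 counts, 0 of 503 cells allows up to 0.596%.

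The order of the levels differed between the libraries. The 3′ tags count one end of each transcript, so no scaling by gene length was made. At day 5, Sox4 was followed by Isl1, then Insm1 and Nkx2-2 at the same level, Neurod1 and Fev, with Neurog3 and Pax4 at 0, and below Sox4 each neighbour overlapped the next. At day 3, the order was Sox4, Neurog3, Insm1, Nkx2-2, Neurod1, Isl1, Fev and Pax4. There the intervals of Sox4, Neurog3, Insm1 and Nkx2-2 did not overlap each other, and from Nkx2-2 downward each overlapped the next.

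The UMIs of the 7 factors other than Sox4 came from few cells. Any of them was seen in 12 cells at day 5 (1.13%) and 43 cells at day 3 (5.39%). Cells with at least 2 of the 7 numbered 5 at day 5 (0.469%, exact interval 0.153 to 1.09) and 14 at day 3 (1.75%, 0.962 to 2.93), and they held 90.0% of the UMIs of these factors at day 5 and 80.8% at day 3. At equal depth the expected shares were 0.463% at day 5 and 1.06% at day 3. All 7 day 5 cells with a single factor, and 25 of the 29 such cells at day 3, had just 1 UMI of it. The 4 other day 3 cells had 2 to 22 UMIs of Neurog3 alone.

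Cells were clustered on genes that did not include the 8 factors. One cluster of 13 cells, 5 from day 5 and 8 from day 3, was led by Cck, Ghrl, Rbp4, Chgb and Cpe and is called Enteroendocrine-like, since 8 of its 25 leading genes were enteroendocrine markers. A second cluster, of 40 day 5 and 45 day 3 cells, was led by Paneth and goblet genes such as Defa17 and Zg16 and is called mixed secretory. All 13 Enteroendocrine-like cells had at least 2 of the 7 factors, and they were all 5 such cells at day 5 and 8 of the 14 at day 3. At day 5 this cluster held 0.469% of cells and 90.0% of the UMIs of the 7 factors, and the mixed secretory cluster 3.76% of cells and 1.43% of the UMIs. At day 3 it held 1.00% of cells and 43.3% of the UMIs, and the mixed secretory cluster 5.64% of cells and 45.5%. No cell with any of the 7 factors was called a doublet. Doublet calling marked 0 cells in the whole day 3 library and 8 at day 5, so this cannot show that these cells are single.

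The factors divided between these clusters at day 3. Neurog3 lay mostly in mixed secretory cells, 99 of 125 UMIs in 8 cells (79.2%), with 13.6% in the Enteroendocrine-like cluster. Insm1 was spread over both, 53.4% in mixed secretory and 31.5% in Enteroendocrine-like cells. Nkx2-2 had 21.1% in mixed secretory and 65.8% in Enteroendocrine-like cells. Neurod1, Isl1 and Fev had 0 UMIs in mixed secretory cells and 87.1%, 85.2% and 88.9% in the Enteroendocrine-like cluster, and Pax4 had 81.8% there. At day 5, 80.0% to 96.0% of the UMIs of Neurod1, Insm1, Nkx2-2, Isl1 and Fev were in the Enteroendocrine-like cluster.

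**Figure D2:**
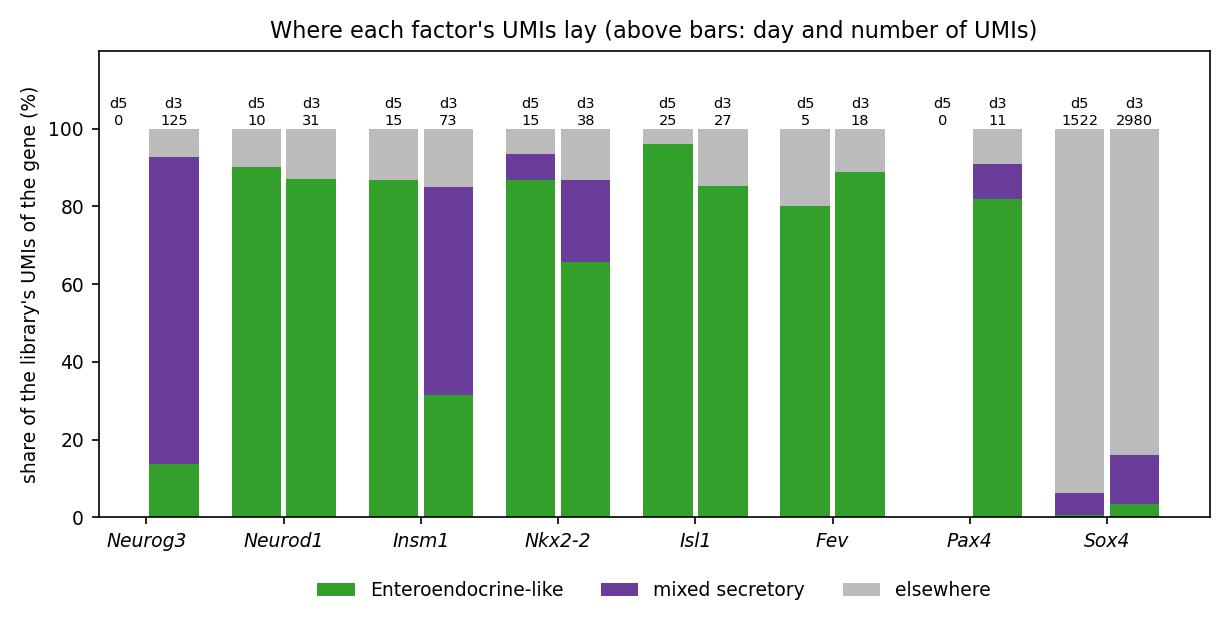
Share of each factor's UMIs (%) found in Enteroendocrine-like, mixed secretory and all other cells, day 5 bar left of day 3 bar, with the number of UMIs above each bar. At day 3 the mixed secretory share is 79.2% for Neurog3, 53.4% for Insm1 and 21.1% for Nkx2-2, and 0 for Neurod1, Isl1 and Fev.

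Single cells show which factors stood together. Of the 5 Enteroendocrine-like cells at day 5, a cell of 6968 UMIs had 4 Neurod1, 2 Insm1, 5 Nkx2-2, 1 Isl1 and 2 Fev UMIs with 2029 UMIs of Cck, the cholecystokinin gene. Another, with 3 Neurod1 and 2 Isl1 UMIs, had 1768 of Cck and 1244 of Gcg, the proglucagon gene, and the cell with 10 Isl1 UMIs had 911 of Cck and 91 of the granule gene Chgb. The other two lacked Neurod1. One of them had 4 Insm1 and 4 Isl1 UMIs with 30 of the somatostatin gene Sst, and the other had 6 Nkx2-2 and 7 Isl1 UMIs with 684 of Ghrl, the ghrelin gene. All 5 had Insm1 and Isl1, and none had Neurog3 or Pax4. Their totals ran from 6968 to 16687 UMIs, all below the lowest day 3 cell.

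At day 3 the cells with the most Neurog3 looked different. The highest had 30 Neurog3, 9 Insm1 and 53 Sox4 UMIs and 0 UMIs of Neurod1, Isl1, Fev, Chga, Chgb, Cck and Ghrl. The next had 22 Neurog3 and 9 Atoh1 UMIs, with 15 of the cell-cycle gene Mki67 and none of the other rare factors. A cell with 12 Neurog3, 15 Insm1 and 4 Nkx2-2 UMIs also had 51 Sox4 and 5 Neurod2 UMIs, and a cell with 11 Neurog3, 13 Insm1, 3 Nkx2-2 and 1 Pax4 UMIs had 47 of Sox4 and 4 of Neurod2. These 4 cells were mixed secretory by cluster.

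Cells with both Neurog3 and later factors were few. A day 3 cell with 9 Neurog3 and 6 Neurod1 UMIs had 2 of Isl1 and 345 of Ghrl, and a cell with 5 Neurog3 and 7 Neurod1 UMIs had 3 of Isl1 and 50 of Ghrl. A cell with 1 Neurog3 UMI had 5 Neurod1 and 5 Pax4 UMIs, and one with 2 Neurog3 UMIs had no Neurod1 but 5 Fev, 147 Chgb and 15 Tac1 UMIs. Among day 3 cells with no Neurog3, one had 2 Neurod1 and 7 Isl1 with 1235 Cck and 214 Gcg UMIs, one had 2 Neurod1, 8 Nkx2-2 and 6 Isl1 with 421 Cck and 340 Ghrl UMIs, and one had 5 Neurod1, 7 Insm1 and 4 Fev with 116 Chgb and 23 Chga UMIs. The cell rich in Cck and Gcg was also the seventh largest of the day 3 library, with 84429 UMIs.

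**Figure D3:**
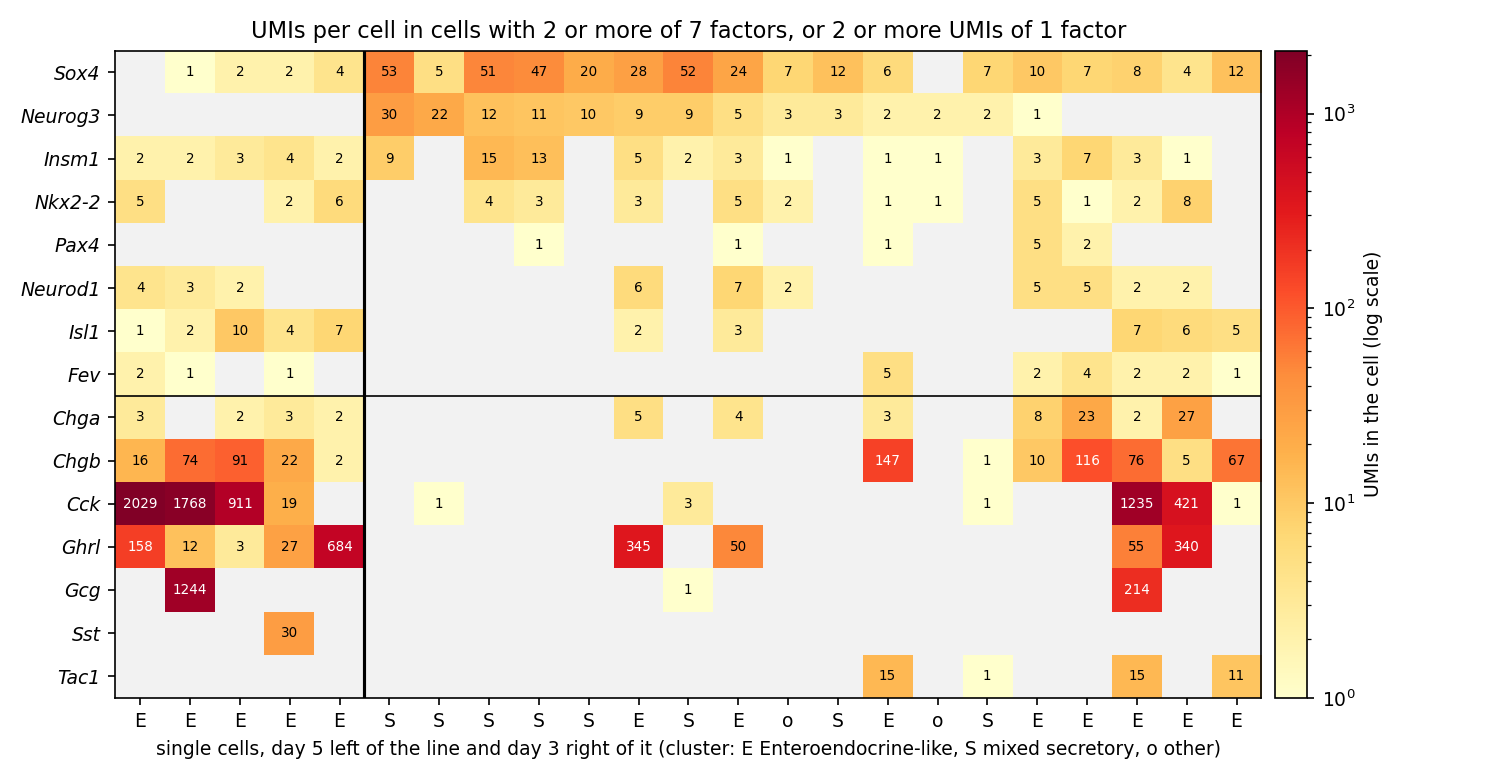
UMIs per cell (printed, with colour on a log scale) of the 8 factors and 7 hormone and granule genes in cells with at least 2 of the 7 rare factors or at least 2 UMIs of any of them. The 5 day 5 cells stand left of the line and the 18 day 3 cells right of it, ordered by Neurog3. The 5 cells with 10 or more Neurog3 UMIs have at most 1 UMI of any hormone or granule gene shown, and the cells with 421 or more Cck UMIs have no Neurog3.

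Co-detection of the factors at day 3 was counted from each factor in turn. Of the 18 Neurog3 cells, 10 had Insm1 (55.6%, 30.8 to 78.5), 8 had Nkx2-2 (44.4%), 4 had Neurod1 (22.2%, 6.41 to 47.6), 4 had Pax4, 2 had Isl1 and 2 had Fev (11.1% each). Counted from the other factors, 4 of 9 Neurod1 cells (44.4%, 13.7 to 78.8), 4 of 6 Pax4 cells, 2 of 9 Isl1 cells and 2 of 8 Fev cells had Neurog3. Insm1 and Nkx2-2 were each found in 7 of the 9 Neurod1 cells (77.8%), and each was found in 5 of the 6 Pax4 cells. At day 5, 5 of the 6 Isl1 cells had Insm1 and 3 of the 4 Neurod1 cells had Isl1. The same cells stand behind both directions of a pair, so these shares differ with the number of cells each factor was found in. The intervals are wide and overlap for Neurog3 and Neurod1, cells of a library are not replicates, and each cell was seen once, so the classes below do not order cells in time.

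Day 3 cells were set in classes by Neurog3 and Neurod1 alone, 14 cells with Neurog3 and no Neurod1, 4 with both, 5 with Neurod1 and no Neurog3, and 775 with neither. Their median totals were 27471, 50844, 38578 and 32087 UMIs in that order, so detection in the first class had the least depth. Some cells rest on 1 UMI, and with a minimum of 2 UMIs the classes held 10, 3 and 4 cells. At day 5 the first and second classes were empty, and 4 cells had Neurod1 without Neurog3.

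Insm1 was high in every class with Neurog3 or Neurod1, at 91.7 CPM (65.8 to 124) with Neurog3 alone, 57.4 CPM (29.6 to 100.2) with both and 46.8 CPM (23.3 to 83.7) with Neurod1 alone, against 0.323 CPM in cells with neither. Nkx2-2 was 20.1 CPM (9.21 to 38.2) with Neurog3 alone, 71.7 CPM (40.1 to 118) with both and 46.8 CPM (23.3 to 83.7) with Neurod1 alone, and the first and second classes did not overlap. With a minimum of 2 UMIs they did, at 27.9 CPM (12.8 to 53.0) with Neurog3 alone and 63.7 CPM (30.6 to 117) with both, and the value with Neurod1 alone was 14.3 CPM without its highest cell. Likewise, without the highest cell of each class, Insm1 was 61.6 CPM with Neurog3 alone, 42.5 CPM with both and 22.5 CPM with Neurod1 alone. With Neurog3 alone, 6 of the 14 cells had Insm1, and single cells held 15, 13 and 9 of its 41 UMIs. Pax4 was 4.48 CPM (0.542 to 16.2), 28.7 CPM (10.5 to 62.4) and 8.50 CPM (1.03 to 30.7) in the same order, with overlapping intervals and no stable order. A single cell held 5 of the 6 UMIs of the class with both, which was at 6.37 CPM without it, and with a minimum of 2 UMIs the values were 6.21, 6.37 and 31.8 CPM. Isl1 had 0 UMIs with Neurog3 alone, an upper limit of 8.25 CPM, 23.9 CPM (7.76 to 55.8) with both and 55.3 CPM (29.4 to 94.5) with Neurod1 alone, where the last lay above that limit. All 13 Isl1 UMIs with Neurod1 alone came from 2 of the 5 cells, and the level was 39.8 CPM without the highest cell. Fev was 11.2 CPM with Neurog3 alone, all from 1 cell, 9.56 CPM with both, also from 1 cell, and 34.0 CPM (14.7 to 67.0) with Neurod1 alone. At day 5 the Neurod1 cells had 119 CPM of Insm1 (47.8 to 245), 85.0 CPM of Nkx2-2 (27.6 to 198) and 221 CPM of Isl1 (118 to 378). Of these 4 cells, the one with 1 Neurod1 UMI lay outside the Enteroendocrine-like cluster and held 35788 of their 58836 UMIs. Without it the values were 304 CPM of Insm1, 217 CPM of Nkx2-2 and 564 CPM of Isl1. All Nkx2-2 UMIs were in 1 cell, and without the highest Isl1 cell the Isl1 level of the 4 cells was 58.2 CPM.

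Sox4 ran the other way across the classes at day 3. It was 599.7 CPM (530.1 to 676) with Neurog3 alone, 329.8 CPM (257 to 417) with both and 93.5 CPM (58.6 to 142) with Neurod1 alone, and these intervals did not overlap. The last value was close to the 94.0 CPM (90.5 to 97.7) of cells with neither. Without the highest cell of each class, Sox4 was 504 CPM with Neurog3 alone, 249 CPM with both and 92.8 CPM with Neurod1 alone. Single cells held 53, 52, 51 and 47 of the 268 UMIs of the first class. Its level thus rests on few cells, and the intervals do not cover the spread between cells. In the Neurod1 cells of day 5, Sox4 was 68.0 CPM (18.5 to 174).

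**Figure D4:**
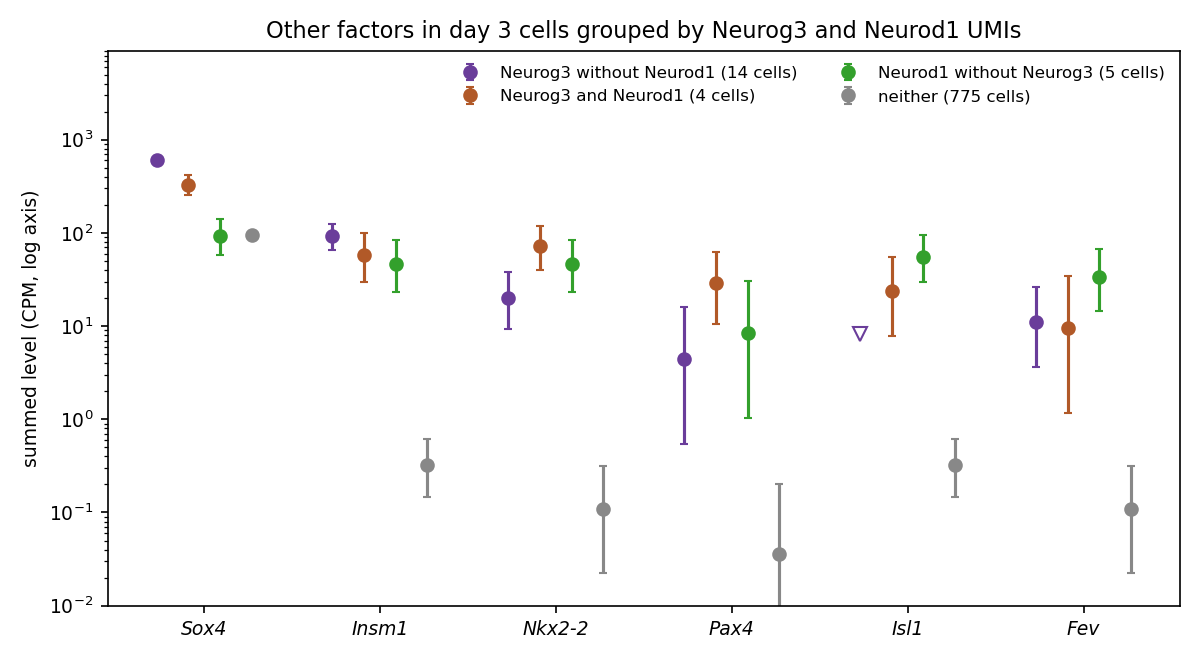
Summed level (CPM, log axis) of 6 factors in day 3 cells grouped by whether they had a UMI of Neurog3, of both Neurog3 and Neurod1, of Neurod1, or of neither. Bars are exact Poisson 95% intervals, and the open triangle is the upper limit of 8.25 CPM for Isl1 at 0 UMIs. Sox4 is at 599.7, 329.8, 93.5 and 94.0 CPM from left to right, while Isl1 is at 0 in the first class and highest with Neurod1 alone. That highest Isl1 level came from 2 of 5 cells.

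Within single cells, high Sox4 accompanied high Neurog3. The 8 day 3 cells with at least 5 Neurog3 UMIs had a median of 839 CPM of Sox4 (range 195 to 2566), the 10 with 1 to 4 had 133 CPM (0 to 409), and the 780 with none had 56.8 CPM (0 to 1928). Mixed secretory cells without Neurog3 had a median of 66.5 CPM and Stem-like cells without it 123 CPM. Neurog3 was present in 3 of the 5 and 6 of the 20 cells highest in Sox4. The relation was not exclusive, since 12 of the 18 day 3 cells above 500 CPM had no Neurog3, and 18 day 5 cells were above 500 CPM with no Neurog3 in the library.

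**Figure D5:**
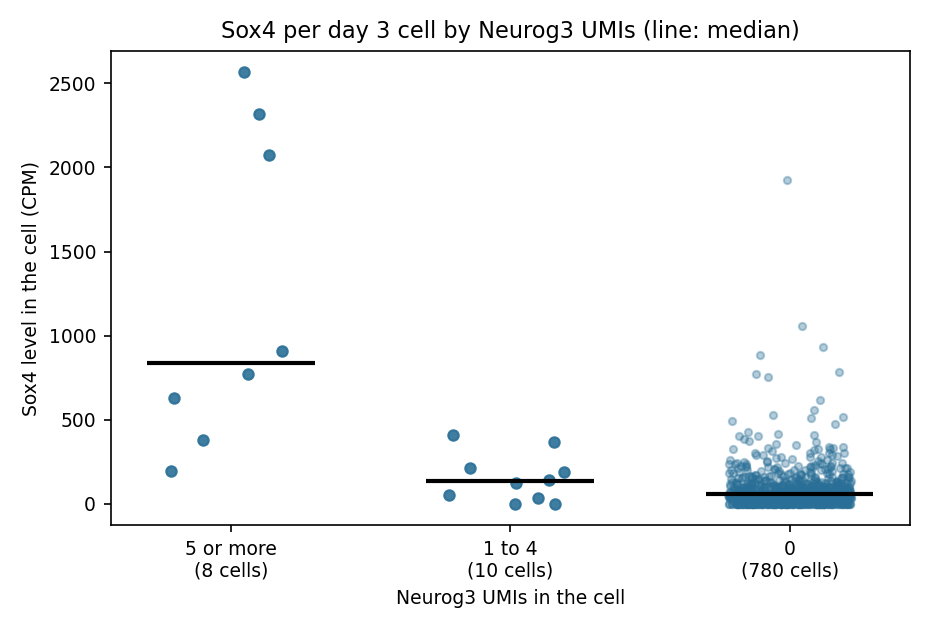
Sox4 level (CPM) of each day 3 cell, grouped by the number of Neurog3 UMIs in the cell, with the median as a line. The medians are 839, 133 and 56.8 CPM from left to right, and the highest cell without Neurog3 is at 1928 CPM.

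The endocrine and secretory lists changed across the same day 3 classes. Hormone genes summed to 157 CPM with Neurog3 alone, 1979 CPM with both and 10020.2 CPM with Neurod1 alone. Ghrl was at 2.24, 1888 and 1696 CPM in that order, whereas Cck was at 13.4 CPM, 0 and 7049 CPM. Without the highest cell, Ghrl was at 304 CPM with both and 282 CPM with Neurod1 alone, and Cck at 2805 CPM with Neurod1 alone. Chga, a granule protein, was at 6.71 CPM (1.38 to 19.6), 81.3 CPM (47.3 to 130.1) and 225 CPM (169 to 295). Chgb was at 333 CPM with Neurog3 alone, but 4.77 CPM without 1 cell, at 47.8 CPM with both, all from 1 cell, and at 837 CPM with Neurod1 alone. In the 4 Neurod1 cells of day 5, the hormone list reached 106431 CPM and the granule list 5303 CPM.

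Among genes of earlier secretory commitment, Dll1 and Hes6 were highest with Neurog3 alone. Dll1, the Notch ligand of secretory precursors, was at 60.4 CPM (39.8 to 87.9) with Neurog3 alone, 9.56 CPM (1.16 to 34.5) with both and 0 with Neurod1 alone, an upper limit of 15.7 CPM. Hes6 was at 141, 57.4 and 68.0 CPM, and Btg2, an antiproliferative gene, at 166, 139 and 132 CPM. Atoh1, chosen for mention after its values were seen, was at 35.8 CPM, 23.9 CPM and 0. Hes1, the Notch-induced repressor, was at 67.1 CPM (45.3 to 95.8), 86.0 CPM (51.0 to 136) and 115 CPM (75.6 to 167), against 134 CPM in cells with neither. Proliferation genes summed to 1224, 1424 and 1305 CPM, beside 1357 CPM in cells with neither.

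Markers of other secretory cells moved with these classes too. The goblet list summed to 13205 CPM with Neurog3 alone, 5898 CPM with both, 774 CPM with Neurod1 alone and 1579 CPM with neither, led by Tff3 and Agr2. The Paneth list summed to 2596, 344, 102 and 574 CPM in the same classes. Its main gene Defa24 owed 821 of 889 UMIs in the first class to 1 cell and was at 174 CPM without that cell. Tuft markers had 0 UMIs in the 3 classes. The part of secretory markers or free RNA in the factor levels was not tested. Immune genes (4 of 7 in the table) summed to 26 UMIs at day 5 and 51 UMIs at day 3, and stromal, endothelial and neuronal genes (3 of 8) to 12 UMIs at day 5 and 30 UMIs at day 3.

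Over whole libraries, the other endocrine genes differed in both directions. Of 19 other endocrine regulators 3 were higher and 5 lower at day 5, near the 12.3% higher and 31.5% lower over all genes. With TMM the counts were 3 and 2, beside 18.8% higher and 17.1% lower over all genes. Among these regulators were Etv1 (log2 ratio 3.05) and Peg3 (2.78), which were higher, and Foxa1 (-1.84), which was lower. Etv1 had 17 UMIs in 5 cells at day 5, 9 of them in 1 cell, and 3 UMIs in 3 cells at day 3. Peg3 had 14 UMIs in 5 cells at day 5 and 3 UMIs in 3 cells at day 3. Neurod2 had 1 UMI at day 5 and 16 at day 3 and was not called. Of 11 genes in the hormone list 7 were higher and 2 lower. Of the 7, Ddc had UMIs in 543 of 1065 day 5 cells, and in 283 of the 503 Enterocyte-like ones. Gip had UMIs in 71 day 5 cells, 23 of them Enterocyte-like. Both were thus also found outside the Enteroendocrine-like cluster. Gcg had a log2 ratio of 3.00, Sst was at least 40.9-fold higher, with 74 UMIs at day 5 and 0 at day 3, and Pyy was at least 11.3-fold lower, with 0 UMIs at day 5 and 56 at day 3. For Gcg, 1 cell held 1244 of the 1265 UMIs at day 5 and 1 cell held 214 of the 261 at day 3, and for Pyy 1 cell held 50 of the 56 UMIs at day 3, so these values rest on single cells. For Sst, 1 cell held 30 of the 74 UMIs at day 5, and 2 of the 44 cells with Sst had more than 1 UMI. Of these 44 cells, 19 were Enterocyte-like. Among the other genes called higher, the 5 highest day 5 cells held 97.3% of the UMIs of Cck and 89.0% of those of Ghrl. Of 12 granule genes 3 were higher (4 with TMM), among them Pcsk1 (1.70), and Chga (-1.39) was lower. Pcsk1 had 22 UMIs in 12 cells at day 5 and 11 UMIs in 4 cells at day 3. For Chga, the 5 highest day 3 cells held 79.8% of its 84 UMIs. Of 9 secretory commitment genes Btg2 was higher, with 164 CPM at day 5 and 66.8 CPM at day 3, and Cbfa2t3 (-1.39) was lower. Of 5 Notch response genes Hes1 (0.68) was higher and Notch2 (-0.63) lower, the last call being absent with TMM.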

How the data were processed

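The authors deposited UMI counts per gene and cell, and log2 values of the same table, which served only as an alternative scale; Cell Ranger 1.3.0 and build mm10 are named in the submitters' processing notes. How cells and genes were filtered is not given in the sources used here. Cells were profiled with 10x Chromium 3′ chemistry per the labels. The columns' prefixes gave the day. The members and gene lists were chosen with earlier results of these data known.

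UMIs were summed per library, scaled to CPM with exact Poisson 95% intervals, and compared as log2 ratios of day 5 over day 3 with 0.5 UMI added. A side at 0 was set to a floor of 3 UMIs for bounds. Shares above 0 have exact Clopper-Pearson intervals, the limit of a share at 0 is 3 counts of the total, and detection at 6777 UMIs, the lowest cell total, was computed from the hypergeometric distribution. There are no replicates, so no p-value is given. The rule for calls was run on simulated Poisson sums. These lack the concentration of UMIs in few cells, so they cannot show how the rule does on such genes.

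Clusters used 2000 variable genes without the 8 factors, 30 components, 15 neighbours and Leiden resolution 1 after scaling to 10000 UMIs. Naming a cluster required 3 or more listed markers of that type among its 25 leading genes. Scrublet called 8 doublets at day 5 and 0 at day 3, and all cells were kept, so doublets cannot be taken as removed.

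Genes named beside the 8 factors came mostly from 2 sets per list, and not all genes of these sets are named. The sets were the 2 highest and 2 lowest genes between days with at least 10 UMIs, and the 3 with most UMIs in cells with Neurog3 or Neurod1. Atoh1, Ddc and Gip were named outside these sets, after their values were seen. Also named were the 10 genes most correlated with Neurog3, Neurod1 and Sox4 across cells. Symbols were found for 15681 of 15745 identifiers, and positions come from GENCODE on GRCm38, the assembly behind mm10.

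Software was numpy 2.4.6, pandas 2.3.3, scipy 1.17.1, scanpy 1.11.5, igraph 0.11.9, matplotlib 3.10.9, R 4.3.3 and edgeR 4.0.16, the last for TMM factors. Alternatives changed the scaling, the weight of cells, the depth of cells, the cell makeup, the minimum of UMIs and single cells.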

Additional observations from a re-analysis of the deposited data

How the results depend on the processing

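The number of factors called lower was 2 with CPM, with TMM, without the highest cell of each library, and without the Enteroendocrine-like cells, a comparison added after the data were seen. It was 4 when day 5 cells were held to the day 3 minimum of UMIs (Neurog3, Neurod1, Insm1 and Nkx2-2), and 1 without the Enterocyte-like cells (Neurog3), where the number called higher was 1 (Isl1). The share of day 5 cells with at least 2 of the 7 factors was 0 at the day 3 minimum, which keeps 320 of 1065 day 5 cells and none of the 5 Enteroendocrine-like ones. Neurog3 was called lower in each of these comparisons. With each cell weighed alike, the log2 ratio was 0.53 for Neurod1 and 1.64 for Isl1, and the mean of the authors' log2 values differed by -0.41 for Sox4. Without the Enteroendocrine-like cells the log2 ratio was -3.62 for Insm1 and -0.87 for Isl1. Of the values for single factors, 53 moved beyond their interval under an alternative and 77 did not. The causes were not tested. No paired analysis was possible because each day has 1 library. Depth limits every share of cells, and the classes by Neurog3 and Neurod1 rest on 23 day 3 cells.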

Other observations

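Genes whose pattern across cells was most like that of a factor are given as a description, with Pearson's r of log2(UMIs per 10000 + 1), for genes with a UMI in at least 10 cells. The points are cells of 1 library that share depth and free RNA, and the r values rest on the few cells with the factor. At day 3, over 798 cells, Neurog3 was most like Insm1 (r = 0.73), Ffar2 (0.64), Atoh8 (0.55), Hepacam2 (0.53), Trp53i11 (0.52) and Gfra3 (0.48), followed by 1500009L16Rik, Fut1, Gadd45g and Rab15 (0.42 to 0.47). Neurod1 was most like the granule gene Vwa5b2 (0.78), the neurofilament gene Nefm (0.77), Chga (0.73), Ghrl (0.68), Scgn (0.63) and Nkx2-2 (0.61), followed by Pclo, Cryba2, Fam183b and Hmgn3 (0.41 to 0.57). At day 5, over 1065 cells, Neurod1 was most like Cck (0.89), Chgb (0.83), Prnp (0.81), Ceacam10 (0.80), Pcsk1 (0.78), Rbp4 (0.74) and Sct (0.74), with Cd177, Rgs2 and Cplx2 between 0.67 and 0.73. For Sox4 at day 3 the highest values were weak, 0.32 to 0.37, and belonged to Neurog3, Insm1, Thbs1, Tubb2b, Sorbs2, Slc12a2, Clca3b, Trp53i11, Snn and Lfng.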
